A study of Mus musculus with 4 samples.

Results

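The expression of 8 genes of lipoprotein assembly was followed in whole mouse embryos with and without Ddx6, whose product is an RNA helicase of the cytoplasmic granules called P-bodies. The genes were Apoa1, Apoa2, Apoa4, Apob, Apoc2, Apoe and Apom, which encode apolipoproteins, and Mttp, which encodes the large subunit of the microsomal triglyceride transfer protein. They were chosen by name from the 24421 genes of the count table, and all 8 were found. Of these, 7 reached 10 reads in at least 1 library and entered the comparisons, while Apoc2 did not.

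Polyadenylated RNA of ICR embryos was sequenced in 4 libraries, with 1 wild-type (WT) library at embryonic day 7.5 (WT E7.5), 1 at embryonic day 8.5 (WT E8.5) and 2 of Ddx6 knockout (KO) embryos at embryonic day 8.5 (KO1 and KO2). KO embryos were homozygous for an allele that lacks exon 5, made from a floxed allele with Cre under the broadly active CAG promoter, and came from crosses between heterozygotes. Both KO libraries were pools. KO1 mixed an embryo from before head-fold formation with one that had head folds, while embryos of the earlier kind alone made up KO2. Embryos were genotyped from extraembryonic tissue or yolk sac, and how much yolk sac went into each library is not given in the sources used here.

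Lipoproteins carry fat and cholesterol between cells. Before the liver forms, the visceral endoderm (VE), the absorptive epithelium that surrounds the embryo and lines the outer face of the yolk sac, makes most of them and passes lipid of maternal origin to the embryo. Apolipoprotein B is the scaffold of the large particles, and the transfer protein encoded by Mttp loads it with lipid. Apolipoproteins A-I, A-II and M belong to high-density lipoprotein (HDL), E is a ligand for lipoprotein uptake by cells, C-II activates lipoprotein lipase, and A-IV moves between particle classes.

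The sequences before the gene starts are shown because members of this group did not move together, and the printed stretches let 2 of the 3 genes called lower against WT E8.5 (Apoa1 and Apoa2) be read beside genes that were not called (Apob, Apoa4 and Apoe). The stretches of Apom, the third gene called lower, and of Mttp are not shown here, because their annotated starts lie at or beyond the edge of the windows used. Each stretch is the 100 bases before the gene start annotated by GENCODE, written 5′ to 3′ on the strand of the gene. The bases come from the RefSeq promoter table of GRCm38.p6. Apoa2 has a further RefSeq window, from chr1:171221314, upstream of its printed stretch. Capitals mark a searched motif.
Apoa1 (chr9:46228480-46228579, + strand): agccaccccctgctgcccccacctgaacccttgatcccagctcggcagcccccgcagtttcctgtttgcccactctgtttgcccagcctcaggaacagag
Apoa2 (chr1:171224954-171225053, + strand): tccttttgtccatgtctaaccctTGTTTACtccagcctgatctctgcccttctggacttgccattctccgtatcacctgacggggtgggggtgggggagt
Apoa4 (chr9:46240596-46240695, + strand): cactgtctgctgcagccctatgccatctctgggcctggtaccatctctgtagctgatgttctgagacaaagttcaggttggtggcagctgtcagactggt
Apob (chr12:7977548-7977647, + strand): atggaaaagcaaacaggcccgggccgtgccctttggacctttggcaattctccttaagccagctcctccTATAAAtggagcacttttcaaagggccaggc
Apoe (chr7:19699189-19699288, - strand): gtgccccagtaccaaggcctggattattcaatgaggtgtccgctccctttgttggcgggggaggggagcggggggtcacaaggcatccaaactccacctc

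In these stretches, Apoa2 held the FOXA motif (TGTTTAC) and Apob held a TATA box (TATAAA), and the other 3 held none of the 5 motifs given here. The search covered both strands of the 250 bases before each RefSeq start, in 32851 windows of which 11 belonged to the 8 genes. The HNF4 core (AAAGTCCA) lay in 1.01% of all windows and among the 8 genes in a window of Apoa2 alone. The same held for the direct repeat core (AAAGGTCA), in 1.34% of windows, and for the FOXA motif, in 3.17%. The TATA box lay in 12.4% of windows and in windows of Apoa2, Apob and Apoe. The Apoe window that held it, from chr7:19698572, lies inside the annotated gene. The HNF4 and direct repeat matches of Apoa2 were in its upstream window, not in that of the printed stretch. The GATA motif (AGATAAG), in 2.74% of windows, lay in none of the 11. The letters of different motifs may overlap, and a match describes the sequence only. Each motif given here was searched as an exact word, so a site that differs by a letter was missed. A window without a match may therefore still hold a site.

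The smallest library was KO1 with 8198402 counted reads, and the largest was WT E8.5 with 12562640. Ddx6 had 2943 reads in WT E7.5, 5715 in WT E8.5, 706 in KO1 and 929 in KO2, and these reads cover exons outside the deletion too. VE markers were present, since 10 of 10 genes of VE absorption, 12 of 14 VE plasma protein genes and 13 of 15 VE regulators passed the minimum of 10 reads. Other tissues differed between libraries. CPM are reads scaled to a common library size with TMM, edgeR's trimmed-mean factors. The 6 trophoblast giant cell markers summed to 219 CPM in WT E7.5, 182 in WT E8.5, 423 in KO1 and 822 in KO2. Prl3b1 had 0 reads in every library. Hand1 alone had 2570, 2229, 3544 and 4028 of their 2610, 2234, 3552 and 10016 reads, so outside KO2 the sum was nearly all Hand1. Prl3d1 had 27, 1, 3 and 4156 reads. The decidual marker Prl8a2 had 1318, 26, 64 and 1433 reads, again with KO2 last, and the sum of the 6 decidual markers was 174, 72.5, 94.0 and 183 CPM. The 8 macrophage markers summed to 10.7, 14.0, 18.7 and 23.1 CPM, with C1qa, C1qb and C1qc at 6 reads or fewer in every library. Among the other decidual markers Pgr, with 77, 64, 57 and 132 reads, was also highest in KO2. Dcn (13, 23, 19 and 20 reads), Hand2 (504, 546, 618 and 507), Hoxa10 (93, 160, 22 and 82) and Hoxa11 (66, 72, 9 and 51) were not. KO2 therefore stood apart by trophoblast reads, above all of Prl3d1, and, with WT E7.5, by Prl8a2 reads. Their part in the results below was not tested. Each value is given for KO1 and KO2 apart.

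Together the 8 genes took 0.548% of the reads in WT E7.5 and 0.486% in WT E8.5, against 0.292% in KO1 and 0.271% in KO2 (exact Clopper-Pearson 95% intervals 0.544 to 0.552%, 0.482 to 0.490%, 0.288 to 0.296% and 0.268 to 0.274%). Their sum was 5573, 4968, 2852 and 2668 CPM. Both KO libraries lay below both WT libraries, by 1.74-fold (KO1) and 1.86-fold (KO2) from WT E8.5 and by 1.95-fold and 2.09-fold from WT E7.5. With embryos not separated by tissue, fewer visceral endoderm cells, less yolk sac kept and less RNA per cell cannot be told apart. These intervals hold the error of counting and no other, because PCR copies of a molecule were not marked.

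**Figure D1:**
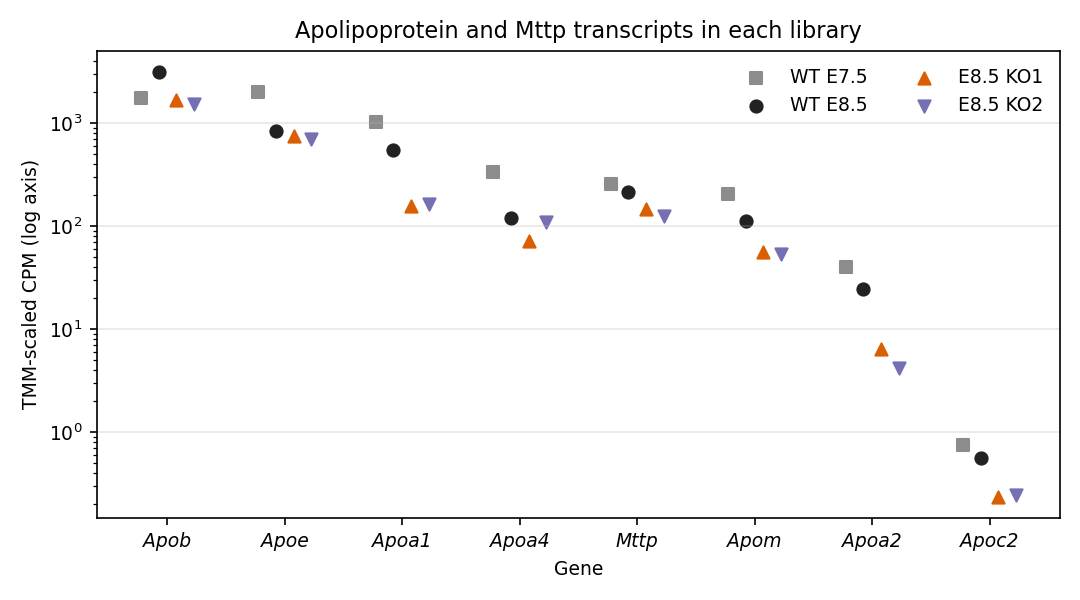
Level of each of the 8 genes in each library, as TMM-scaled CPM on a log axis; each point is 1 library. Apoa1, Apom and Apoa2 are lower in both KO libraries than in both WT libraries, while Apob in KO lies near WT E7.5 and Apoe in KO lies near WT E8.5.

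The order of the genes was compared per length, as reads per kilobase of exon in a library of common size (RPKM). In WT E7.5, Apoe (931) and Apoa1 (826) were far above Apom (199), Apoa4 (183) and Apob (124), and Apoa2 (73.7) and Mttp (40.7) followed. In WT E8.5 the order was Apoa1 (444), Apoe (392), Apob (223), Apom (109.7), Apoa4 (65.6), Apoa2 (45.8) and Mttp (34.8). In KO1 Apoe came first (345), ahead of Apoa1 (125), Apob (121), Apom (54.7), Apoa4 (39.0), Mttp (23.3) and Apoa2 (11.97). KO2 had Apoe at 324, Apoa1 at 133, Apob at 109, Apoa4 at 59.7, Apom at 53.1, Mttp at 20.1 and Apoa2 at 7.79. Apoa2 thus stood above Mttp in both WT libraries and below it in both KO libraries. Apoe and Apoa1 shared the first and second places in all 4, with Apoa1 first in WT E8.5 alone. With 1 library for each WT stage, the spread of neighbours in this order could not be estimated. Apoc2 was last in all 4, at 0.931, 0.701, 0.293 and 0.303 RPKM.

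The HDL genes were compared first. Apoa1 (chr9:46228580-46230466, GRCm38, + strand), which encodes the main HDL protein, had 12148 reads in WT E7.5, 6739 in WT E8.5, 1302 in KO1 and 2002 in KO2, or 1021, 548, 155 and 164 CPM. Both KO libraries were below both WT libraries. Against WT E8.5 it was 3.54-fold lower in KO1 (95% counting interval 3.33 to 3.76) and 3.34-fold lower in KO2 (3.17 to 3.51), a mean log2 change of -1.78 ± 0.06 (SD, n = 2 KO libraries). Against WT E7.5 it was 6.59-fold and 6.22-fold lower. The 2 KO libraries differed by 0.08 on the log2 scale, within counting error.

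Apoa2 (chr1:171225054-171226379, + strand), the second HDL protein, had 39.6, 24.6, 6.43 and 4.19 CPM from 471, 302, 54 and 51 reads. The mean log2 change against WT E8.5 was -2.20 ± 0.42, with 3.82-fold lower values in KO1 (2.85 to 5.20) and 5.87-fold lower values in KO2 (4.35 to 8.06). Its mean change against WT E7.5, -2.89, was the lowest of the 7 genes. The read ratio of Apoa2 to Apoa1 was 0.0388 in WT E7.5, 0.0448 in WT E8.5, 0.0415 in KO1 (0.0310 to 0.0545) and 0.0255 in KO2 (0.0189 to 0.0336). The KO2 interval overlapped that of KO1 and lay below those of both WT libraries.

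Apom (chr17:35128997-35132050, - strand), whose product carries sphingosine-1-phosphate on HDL, had 202, 111, 55.4 and 53.8 CPM from 2402, 1366, 465 and 656 reads. KO libraries were again below both stages, by 2.01-fold (1.81 to 2.23) and 2.06-fold (1.88 to 2.27) from WT E8.5. The log2 changes of -1.003 and -1.04 lay just past the threshold of -1, and without TMM scaling they were -0.94 and -0.99, which ended the call against WT E8.5 and that below both stages. Against WT E7.5 the changes were -1.86 and -1.90.

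The scaffold protein showed another pattern. Apob (chr12:7977648-8016835, + strand) had 20617, 38222, 14125 and 18530 reads, or 1733, 3110, 1682 and 1521 CPM. WT E8.5 was thus the high library, and both KO libraries lay close to WT E7.5. The log2 change against WT E8.5 was -0.89 in KO1 (counting interval -0.91 to -0.86) and -1.03 in KO2 (-1.06 to -1.01), so that KO1 missed the threshold and the gene was not called. Against WT E7.5 it was -0.04 and -0.19. Between the WT libraries Apob was 1.79-fold lower at E7.5 than at E8.5 (1.76 to 1.82), the only 1 of the 7 genes with the lower level at E7.5.

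Mttp (chr3:138089854-138144968, - strand) had 253, 216, 145 and 125 CPM from 3006, 2651, 1214 and 1521 reads. KO libraries were the lowest again, but the distances were smaller than for the HDL genes. Its log2 changes were -0.58 and -0.79 against WT E8.5, and -0.81 and -1.02 against WT E7.5, with no call in either comparison. Apob had 6.86 reads for each Mttp read in WT E7.5, 14.4 in WT E8.5, 11.6 in KO1 and 12.2 in KO2.

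By the mean over both KO libraries, Apoe and Apoa4 were the genes nearest to WT E8.5, although Apoa4 in KO1 was not. Apoe (chr7:19696109-19699188, - strand) had 1991, 839, 738 and 692 CPM from 23685, 10308, 6197 and 8434 reads. The log2 changes in KO were -0.18 and -0.28 against WT E8.5, with counting intervals that excluded 0 (-0.23 to -0.14 and -0.32 to -0.24), and -1.43 and -1.52 against WT E7.5. The step between the stages was larger than that between KO and WT E8.5, with 2.37-fold more in WT E7.5 than in WT E8.5.

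Apoa4 (chr9:46240696-46243459, + strand) had 332, 119, 70.7 and 108 CPM from 3947, 1464, 594 and 1321 reads. Its log2 change against WT E8.5 was -0.75 for KO1 and -0.14 for KO2, giving a mean of -0.44 ± 0.43 whose SD was as large as the change. The difference between the KO libraries, 0.61 higher in KO2 on the log2 scale (0.48 to 0.76), exceeded counting error. Against WT E7.5 the changes were -2.23 and -1.61.

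Apoc2 (chr7:19671579-19677941, - strand) was near the limit of detection, with 9, 7, 2 and 3 reads. The ratio of KO1 to WT E8.5 was 0.418 (0.0424 to 2.20) and that of KO2 to WT E8.5 0.432 (0.0721 to 1.89), so that no difference was detectable at this depth. Its exons overlap those of an annotated readthrough gene on the same strand, Gm44805, which makes its few reads uncertain. No exon of the other 7 genes overlaps another annotated gene on the same strand.

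**Figure D2:**
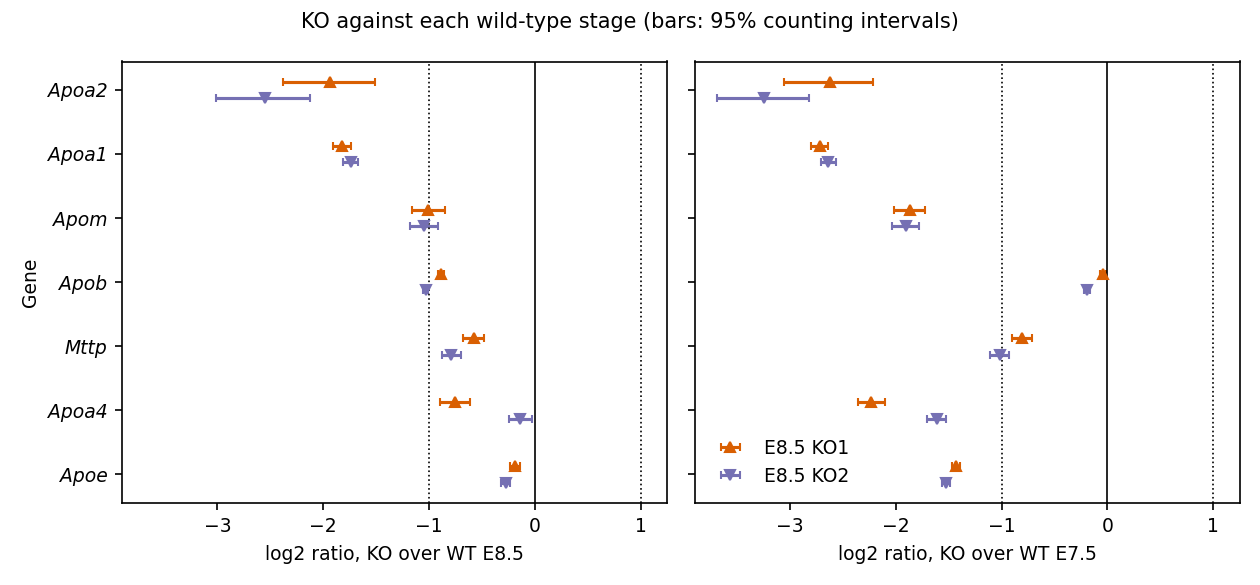
log2 ratio of each KO library to WT E8.5 (left) and to WT E7.5 (right) for the 7 genes past the read minimum; bars are exact 95% counting intervals and dotted lines mark -1 and 1. Apoa2 and Apoa1 lie past -1 on both sides, Apom at -1 against WT E8.5, Apob near 0 against WT E7.5 and Apoe near 0 against WT E8.5.

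A gene was called when its log2 change was past 1 or below -1 in both KO libraries. The threshold is that of the study's methods, the demand that both libraries pass it was added here, and neither carries a p-value. By it, 3 of the 7 genes (Apoa1, Apoa2 and Apom) were lower than in WT E8.5, where 1.79% of all 14393 genes tested were, and 0 were higher, where 3.44% were. Against WT E7.5, 5 genes (Apoa1, Apoa2, Apoa4, Apoe and Apom) were lower, beside 2.7% of all genes, and 0 were higher, beside 6.91%. Apoa1, Apoa2 and Apom were below both stages in both KO libraries, which 0.361% of all genes were. Between the WT stages, Apoa4 and Apoe were higher at E7.5, beside 7.82% of all genes, and 0 of the 7 were lower, beside 12.2%. None of the 7 differed by more than 1 on the log2 scale between KO1 and KO2, against 10.9% of all genes. Both KO comparisons share the KO libraries, and the comparisons with WT E8.5 share that library.

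Over the 7 genes, the median log2 change against WT E8.5 was -0.89 (KO1) and -1.03 (KO2), where the medians of all genes were -0.01 and -0.00. Against WT E7.5 it was -1.86 and -1.61, beside 0.02 and 0.07 for all genes. Between WT E7.5 and WT E8.5 it was 0.86, beside 0.02. Ranked from the lowest mean change against WT E8.5, Apoa2 was 97th and Apoa1 174th of 14393 genes, Apom was 551st, Apob 604th, Mttp 1004th and Apoa4 1784th, and Apoe was 3520th.

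With edgeR's quasi-likelihood test and Benjamini-Hochberg adjustment, KO against WT E8.5 gave 0 of the 7 genes and 0 of all 14393 (0%) at an adjusted p under 0.05. At an unadjusted p under 0.05 it gave 5 of the 7 (Apoa1, Apoa2, Apom, Apob and Mttp), beside 7.31% of all genes. Apoa1 had the lowest adjusted p by edgeR, 0.346, with the other 6 between 0.666 and 0.691. This fit takes its estimate of spread from KO1 and KO2, with no replicate at either WT stage. DESeq2 called Apoa1 (adjusted p = 1.92e-18) and Apob (6.69e-06), beside 0.215% of all genes. Against both WT libraries taken as 1 group, edgeR gave 0 of the 7 and 0 of all genes (0%) at an adjusted p under 0.05, each of the 7 at 0.900, and 4 of the 7 at an unadjusted p under 0.05 (Apoa1, Apoa2, Apom and Mttp), beside 3.93% of all genes. DESeq2 called Apoa1 (2.90e-07), Apoa2 (1.11e-04) and Apom (0.0153) in that comparison, beside 0.222% of all genes. Apob, which differed between the WT stages, then had an adjusted p of 0.999.

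Ratios of reads within a library need no scaling between libraries. There were 0.513 Apoa1 reads for each Apoe read in WT E7.5 and 0.654 in WT E8.5, but 0.210 in KO1 (exact 95% interval 0.198 to 0.223) and 0.237 in KO2 (0.226 to 0.249). The KO values were below those of both stages. There were 0.871 Apob reads for each Apoe read in WT E7.5, 3.71 in WT E8.5, 2.28 in KO1 and 2.20 in KO2. This ratio lay between the 2 stages in both KO libraries. Apob made up 31.1% of the reads of the 8 genes in WT E7.5, 62.6% in WT E8.5, 59.0% in KO1 and 57.0% in KO2, whereas Apoa1 made up 18.3, 11.0, 5.44 and 6.16%. The makeup of the group in KO was therefore that of neither stage, with a share of Apob near WT E8.5 and the lowest shares of Apoa1.

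Hnf4a, which encodes a nuclear receptor that drives apolipoprotein genes in liver and VE, had 2182, 1578, 1029 and 1536 reads, with log2 changes of -0.07 and -0.03 against WT E8.5. There were 5.57 Apoa1 reads for each Hnf4a read in WT E7.5, 4.27 in WT E8.5, 1.265 in KO1 and 1.303 in KO2. For Apob the ratio was 9.45, 24.2, 13.7 and 12.1, and for Apoe 10.9, 6.53, 6.02 and 5.49. Cubn, which encodes the endocytic receptor cubilin of the VE, had 28998, 26884, 13997 and 19354 reads. Per Cubn read, Apoa1 had 0.419, 0.251, 0.0930 and 0.103 reads, the lowest in KO, while Apoe had 0.817, 0.383, 0.443 and 0.436, higher in KO than in WT E8.5.

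**Figure D3:**
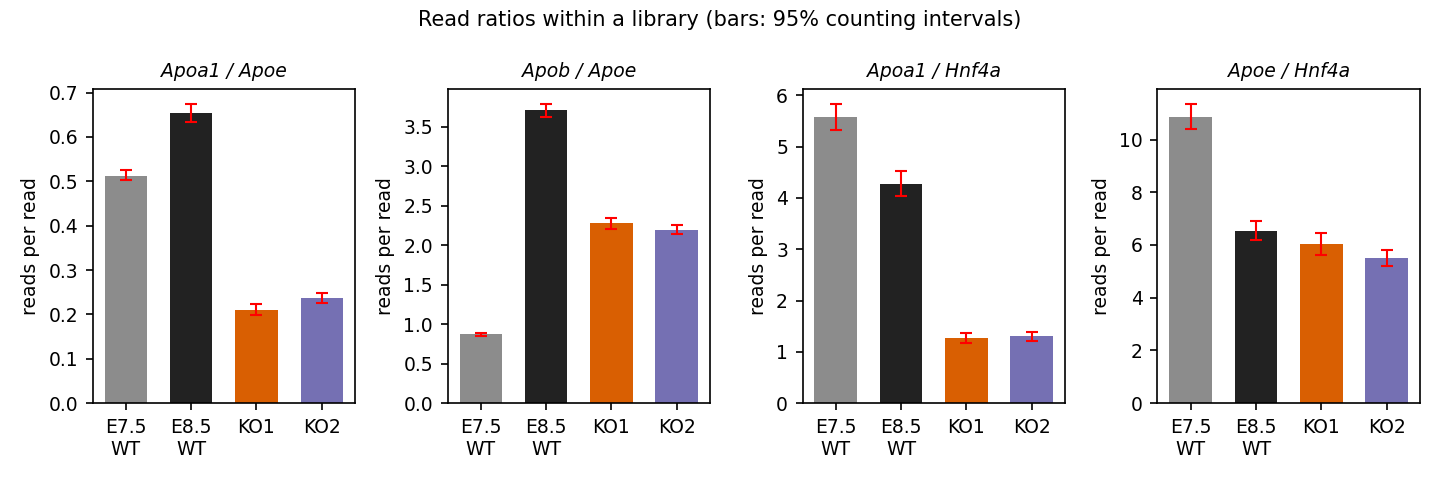
Reads of one gene per read of another within each library (y axis, reads per read, from 0) for 4 pairs of genes; red bars are exact 95% counting intervals. The Apoa1 to Apoe and Apoa1 to Hnf4a ratios are lowest in both KO libraries, Apob to Apoe in KO lies between the stages, and Apoe to Hnf4a in KO1 and KO2 is 6.02 and 5.49 beside 6.53 in WT E8.5.

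The other apolipoprotein genes were looked at as a list of 8, of which 4 passed the minimum. Apoc3, an inhibitor of lipoprotein lipase, was lower than in WT E8.5 in both KO libraries, with 53, 56, 8 and 17 reads and log2 changes of -2.07 and -1.59. Clu, the gene with the most reads of the list, had 188, 289, 209 and 230 reads and changes of 0.08 and -0.31. Apoc1 (329, 159, 77 and 125 reads) had changes of -0.49 and -0.33, and Apoa5 (71, 49, 30 and 49 reads) -0.15 and 0.01. The median of the 4 was -0.32 in both KO libraries. Apoc4, Apod, Apof and Apoh had 7 reads or fewer in every library.

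Several of these genes lie side by side. Apoc3 lies on the opposite strand, 2.5 kb from Apoa1, Apoa4 lies 10.2 kb away and Apoa5 38.2 kb away. Apoa1 and Apoc3 were called lower against WT E8.5 and their neighbours Apoa4, Apoa5 and Zpr1 (-0.04 and 0.12) were not. There were 229 Apoa1 reads for each Apoc3 read in WT E7.5, 120 in WT E8.5, 163 in KO1 (82.3 to 378) and 118 in KO2 (73.4 to 203), with wide intervals in KO. At the Apoe locus, Apoc1 lies 3.4 kb and Tomm40, which encodes a mitochondrial import channel, 2.1 kb from Apoe. Tomm40 had changes of -0.25 and -0.02, beside -0.18 and -0.28 for Apoe. Over all 35 other genes within 100 kb of a member, up to 4 on each side, 22 passed the minimum. Of these, 1 was called lower against WT E8.5 (Apoc3), beside 1.79% of all genes. Also 1 was called higher (Cblc, 66, 20, 37 and 56 reads, with 1.34 and 1.40), beside 3.44% of all genes. The median changes of the 22 were -0.01 and 0.04. Against WT E7.5, 2 were lower, beside 2.7% of all genes, and 1 was higher, beside 6.91%.

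**Figure D4:**
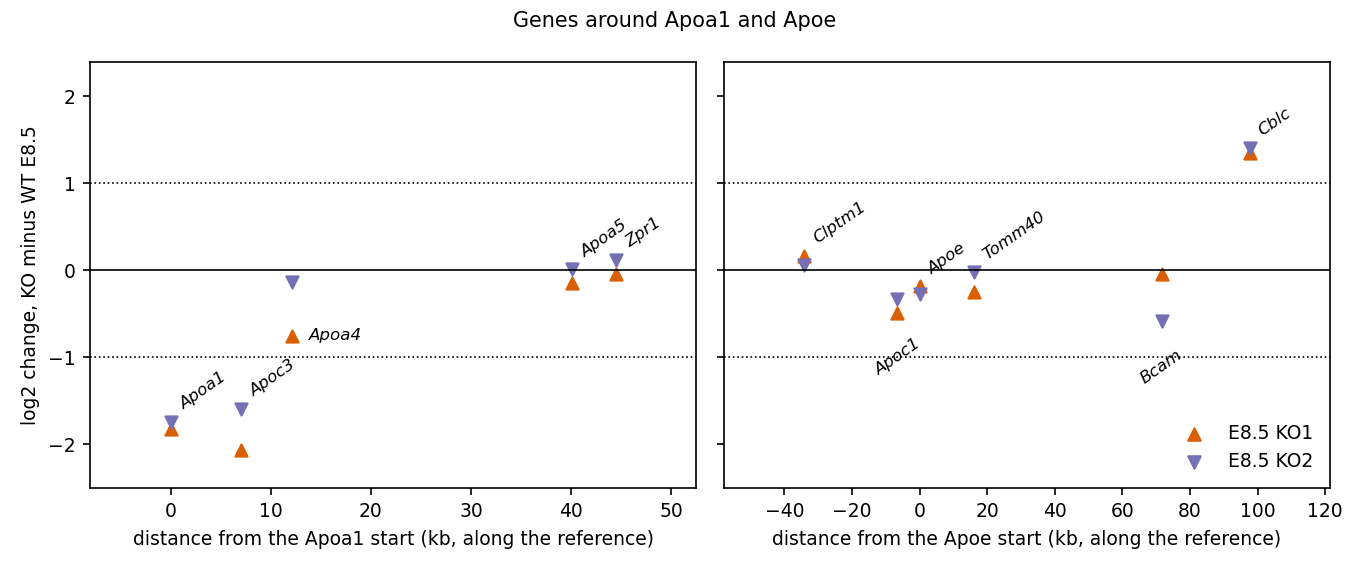
log2 change of each KO library against WT E8.5 for the genes past the read minimum around Apoa1 (left) and Apoe (right), by the distance of their starts in kb. Apoa1 and Apoc3 lie below -1 while Apoa4, Apoa5 and Zpr1 do not, and of the genes around Apoe only Cblc lies past 1 or -1, with Bcam at -0.59 in KO2.

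The genes of lipoprotein assembly and secretion outside the members were close to WT E8.5. Of 17 listed, 16 passed the minimum. Against WT E8.5, 0 were called lower, beside 1.79% of all genes, and 0 higher, beside 3.44%. The medians of the 16 were -0.01 and -0.04. P4hb, which encodes protein disulfide isomerase, the partner subunit of the Mttp product, had 13131, 11194, 7600 and 10956 reads and changes of -0.01 and -0.02. Against WT E7.5 3 of the 16 were lower, beside 2.7% of all genes. Dgat2, an enzyme of triglyceride synthesis, was among them, with 1203, 531, 352 and 533 reads and changes of -1.27 and -1.21. Apobec1, the enzyme that edits Apob RNA, had 8 reads or fewer in every library.

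Of 25 genes of lipoprotein receptors and remodelling, 23 passed, with medians of 0.04 and -0.07. Lower than in WT E8.5 were 2, beside 1.79% of all genes, and 0 were higher, beside 3.44%. Vldlr, a receptor for very-low-density lipoprotein, had 210, 521, 112 and 192 reads and changes of -1.66 and -1.42. Abcg5, which encodes a subunit of a sterol exporter, had 17, 24, 7 and 6 reads and changes of -1.07 and -1.67. Lrp2, which encodes megalin, had 4990, 9226, 5352 and 6087 reads and changes of -0.24 and -0.59.

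Since these genes are markers of the VE themselves, they were set beside 3 lists of other VE genes. Over all genes, 1.79% were called lower and 3.44% higher against WT E8.5, and 2.7% lower against WT E7.5. Of the VE plasma protein genes, 5 of 12 were called lower against WT E8.5 and 0 higher, with medians of -1.11 and -1.07. They included Rbp4, the retinol carrier (5817, 4720, 1417 and 1372 reads, changes of -1.19 and -1.77), and the fibrinogen gene Fga (292, 278, 27 and 57 reads, -2.75 and -2.23). Against WT E7.5 8 of the 12 were lower. Of the 10 genes of VE absorption, 1 was lower, the calcium-binding protein gene S100g (314, 451, 39 and 54 reads, -2.93 and -3.00), and the medians were -0.46 and -0.54. Of the 13 regulators, 1 was lower (Nr2f2, 92, 369, 105 and 92 reads) and 0 higher, and the medians were 0.35 and 0.23. Among the regulators, Gata4 had changes of 0.26 and 0.26.

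The level of each member was then taken relative to the median log2 CPM of the absorption genes in the same library. On that scale the median change of the 7 members against WT E8.5 was -0.48 in KO1 and -0.55 in KO2, and 5 of the 7 were below 0 in both. Apoa2 (-1.50 and -2.02), Apoa1 (-1.42 and -1.26) and Apom (-0.60 and -0.56) were the lowest in KO1, while Apoe was above 0 (0.22 and 0.20). Relative to the regulators all 7 were below 0 in both KO libraries, with medians of -1.02 and -1.67. The study also uses Sox17 and Foxa2, which stand on the list of regulators, as definitive endoderm markers. That list is therefore not particular to the VE, and the part of other tissues in it was not tested. The median was taken anew in each library, so the gene in the middle of the 13 differed. It was Sox17 in WT E8.5 (359 reads), Foxa1 in KO1 (269) and Foxa2 in KO2 (555). Values on this scale are therefore not relative to the median change of the list given above. Relative to the plasma proteins 2 of 7 were below 0 in both, Apoa1 (-0.74 and -0.16) and Apoa2 (-0.83 and -0.93), and the medians were 0.19 and 0.54. Apoa1 and Apoa2 were thus below 0 in both KO libraries against each of the 3 lists, and the sign of the other 5 depended on the list. The middle of the plasma protein list also moved, from Fga and Serpinf2 in WT E8.5 to Serpinf2 and Fgb in KO1 and KO2. The size of the values relative to it depends on these genes.

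Marker lists of other tissues gave the makeup of the libraries beside these values. Over all genes, 1.79% were called lower and 3.44% higher than in WT E8.5. Against WT E8.5, 5 of 5 primitive erythroid genes, 3 of 4 somite and heart genes and 2 of 4 neural genes were called lower. Called higher were 2 of 4 trophoblast giant cell genes, which rested on 3 and 4 reads in KO1 (Prl3d1 with 27, 1, 3 and 4156 reads and Prl2c2 with 3, 0, 4 and 1400), 1 of 6 decidual genes and 1 of 5 genes of epiblast and streak (Fgf5). No gene of parietal endoderm (7 tested), extraembryonic ectoderm (5) or macrophages (4) was called in either direction. For lists this short, 0 calls is near the share over all genes. Of the parietal endoderm genes, 2 were higher in KO2 than in KO1 by more than 1 on the log2 scale, and 0 were lower. They were Thbd (20, 56, 30 and 838 reads) and Srgn (124, 16, 20 and 223). The epiblast and streak markers summed to 224 CPM in KO1 and 840 CPM in KO2, and their part in the members' values was not tested.

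**Figure D5:**
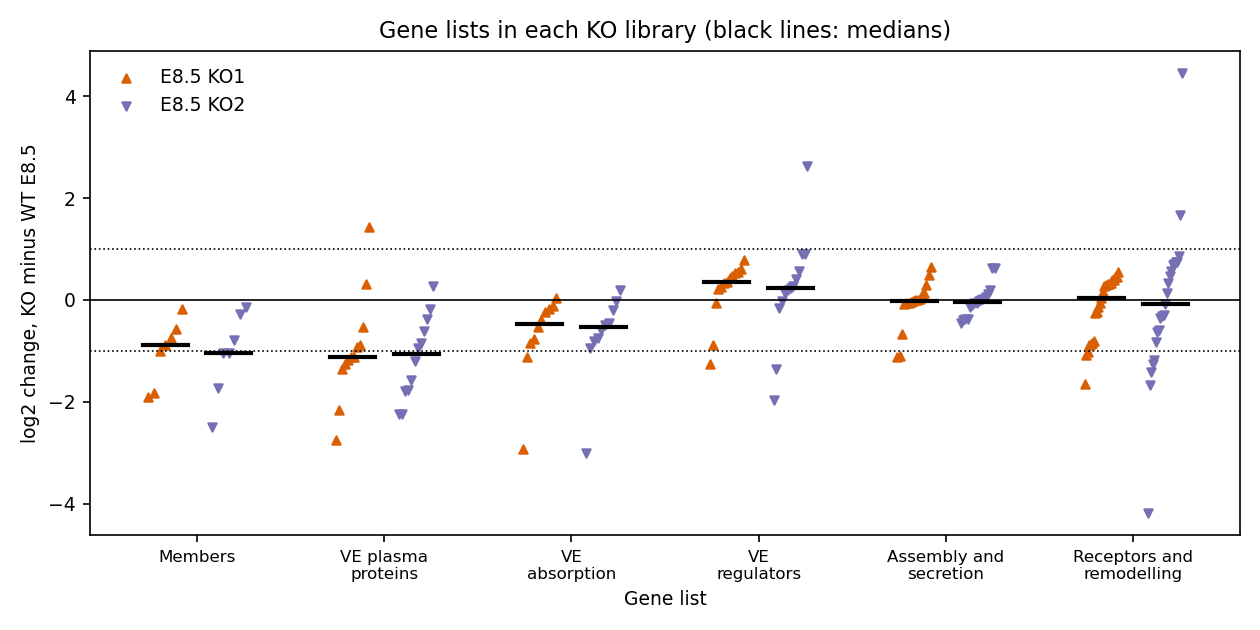
log2 change against WT E8.5 of each gene past the read minimum in 6 gene lists, for KO1 and KO2; each point is 1 gene, black lines are medians and dotted lines mark -1 and 1. The medians of the members (-0.89 and -1.03) and of the VE plasma proteins (-1.11 and -1.07) are the lowest, those of VE absorption are -0.46 and -0.54, and those of the other 3 lists lie between -0.07 and 0.35.

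The genes whose pattern over the 4 libraries was nearest to the median of the members were sought among 11215 genes with a mean of at least 50 reads, by the distance between their log2 changes. The nearest were Pdzd3 (distance 0.16, 231, 121, 47 and 61 reads), Glyctk (0.21, 225, 141, 56 and 72 reads), F2, which encodes prothrombin (0.25, 216, 126, 39 and 64 reads), and Pdzk1 (0.26, 1419, 828, 334 and 466 reads). Pdzk1 encodes a scaffold protein that binds the HDL receptor, and its log2 changes against WT E8.5 were -0.76 and -0.81. F2 and Pdzk1 also stand on the lists of VE plasma proteins and VE absorption. Prodh2, Fam131b, Pla2g12b, Gm8801 and Mgarp followed among the 10 nearest, at distances up to 0.48. With 4 libraries this likeness is a description.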

How the data were processed

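The authors trimmed reads with Cutadapt 2.8, checked them with FastQC 0.11.7, aligned them to mm10 with HISAT2 2.1.0, sorted them with SAMtools 1.9 and counted exon reads per gene, by strand, with featureCounts 2.0.0. The deposited table holds raw counts per gene, with no normalization. Groups came from the sample labels.

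From these counts, CPM and log2 CPM (prior count 2) were computed with TMM factors (0.983, 0.978, 1.02 and 1.01 for WT E7.5, WT E8.5, KO1 and KO2) in edgeR 4.0.16 under R 4.3.3. The comparisons used the 14393 of 24421 genes that reached 10 counts in some library. Fold changes and their exact Clopper-Pearson 95% intervals come from scaled counts without a prior. Two-sided quasi-likelihood tests of edgeR were adjusted over all genes kept, and DESeq2 1.42.0 was the alternative. Scripts were tested on simulated data in which the WT stages had equal means, unlike the data here. RPKM used exon lengths of GENCODE M21, not the authors' annotation.

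The 8 genes, the 15 other gene lists and the tests were chosen with earlier results of these data known. Named besides the 8 are, for each list, the gene with the most reads and up to 4 called in each direction, genes within 100 kb, and the 10 nearest patterns. Dgat2, Gata4, Sox17, Foxa1, Foxa2, Fgb, Thbd, Srgn and the genes under the minimum were named after their values were seen. Some genes that these rules name are not reported here. The labels do not say whether replicates came from separate litters, so p-values measure the spread between these libraries.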

Additional observations from a re-analysis of the deposited data

How the results depend on the processing

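Of 132 values recomputed under the alternatives, 117 kept their direction and stayed close to the value reported (counts within 1.5 times), and 15 did not. The scaling did not depend on the filter on low counts. Changes of single genes under other filters therefore could not differ, and they are counted among the 117. Among the 117, without TMM scaling Apom lost its call, which left 2 genes lower than in WT E8.5 (beside 1.63% of all genes) and 2 below both stages (0.306%). With thresholds of 2 and -2 on the log2 scale, 0 genes were called lower against WT E8.5 (beside 0.354% of all genes), 2 against WT E7.5 (Apoa1 and Apoa2, beside 0.41%), 0 below both stages (0.0486%) and 0 higher at E7.5 than at E8.5 (2.01%). Without the filter on low counts, which adds Apoc2, the median change in KO2 against WT E8.5 was -0.92. The edgeR test against WT E8.5 called 1 gene without the filter (Apoa1, among 8 of 18427 genes or 0.0434%, adjusted p = 0.0129 against 0.324 to 0.481 under the other edgeR settings), and DESeq2 called 2. Against both WT libraries DESeq2 called 3, and edgeR called 0 to 1 when either KO library was left out. The 1 was Apoa1 without KO1, at an adjusted p of 0.0437 by edgeR, among 51 of 14393 genes (0.354%), and without KO2 the count over all genes was 1 (0.00695%). The lone KO2 library was assumed to vary as the WT libraries do. The median change of the members relative to VE genes, averaged over KO1 and KO2, was -0.52 with the absorption genes, -1.34 with the regulators and 0.37, the other direction, with the plasma proteins. The cause of these differences was not tested. Leaving out KO1 gave 4 genes lower than in WT E8.5 (beside 5.91% of all genes), 6 lower than in WT E7.5 (4.06%) and 3 below both (1.2%). Leaving out KO2 gave 3 (3.31%), 5 (7.45%) and 3 (1.37%). No paired analysis was possible because the KO libraries alone carry replicate numbers. With 1 library for each WT stage, the spread between WT embryos is unknown, and Apoc2 was too low for any comparison.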
